A study of Arabidopsis thaliana with 8 samples.

Results

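Histones are the proteins that DNA is wound around in chromatin. Core histones (H2A, H2B, H3 and H4) form the nucleosome, and most of their transcripts in plants are made in dividing cells while DNA is copied. Linker histones (H1) bind the DNA between nucleosomes. HIS1-3 is the H1 variant of Arabidopsis known to respond to water deficit and abscisic acid, and HON4 is a linker-like protein that carries the globular domain of H1 beside the AT-hook motifs of HMGA proteins. HIS4 encodes a core histone H4, and AT5G65360 and AT5G10390 encode H3.1, the H3 form deposited on newly copied DNA. Every expressed sequence tag (EST) that the platform annotation pairs with 1 of these 5 genes was taken, which gave 7 of the 11965 ESTs on the arrays for plants of 10 days and 6 of the 8829 ESTs on the arrays of another type for plants of 21 days. The 5 genes are among 3519 genes named on either type.

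Each of the 8 arrays held total RNA of Arabidopsis thaliana plants overexpressing PK12 in channel 2 and of non-transformed plants in channel 1, with both kinds of plant raised under long days. PK12 is a tobacco protein kinase of the LAMMER family, kinases known to phosphorylate splicing factors. Arrays 56, 57, 60 and 61 were of 10 days, and arrays b100, b90, t100 and t90 of 21 days, the numbers being those in the array titles. By the labels, 2 independent experiments stand behind the 4 arrays of an age without any link from array to experiment, so p-values measure a partly technical spread between arrays. The promoter of the transgene, the number of transgenic lines and any pooling of plants are not stated in the labels. The tissue could not be checked against markers, because the values are ratios without intensities. All values below are log2 ratios of the channels after centring each array on its median, with 0 for equal channels. Which channel is the numerator is not known, so "positive" and "negative" below refer to the sign of the deposited ratio. In bulk RNA of whole plants, fewer cells that express a gene and less RNA per cell cannot be told apart. A relative of PK12, the Arabidopsis LAMMER kinase AME3, had a log2 ratio of 0.25 ± 0.28 at 10 days and -0.01 ± 0.20 at 21 days (SD, n = 4 arrays), with limma adjusted p-values of 0.375 and 0.981.

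At 10 days the 3 core histone genes and HIS1-3 had means on the positive side and HON4 on the negative side. AT5G10390 at a mean of 0.79 (1.73-fold) was the 1 member of 5 that passed in limma at a Benjamini-Hochberg adjusted p under 0.05 over all genes. Of all 3517 genes tested, 13.1% passed, so 1 of 5 is near the background and is no result about histones as a group. By direction, positive calls made up 8.05% of all genes and negative calls 5%. At an unadjusted p under 0.05 there were 2 members, both H3.1 genes, against 32.1% of all genes.

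The H3.1 gene AT5G10390, measured by EST T21412, read 1.30 and 0.83 on arrays 56 and 57 and 0.52 and 0.51 on arrays 60 and 61. All 4 arrays lay on the positive side, which held for 22.7% of all genes. The mean was 0.79 ± 0.37 (SD, n = 4) with a 95% interval from limma of 0.33 to 1.24, and the limma adjusted p was 0.0414. When any 1 array was left out the mean was 0.62 to 0.88 and the limma adjusted p 0.0742 to 0.118. The adjusted p was also above 0.05 when 56 paired with 60 and 57 with 61, at 0.0785 blocked and 0.0864 averaged. When 56 paired with 57 and 60 with 61 it was 0.0354 blocked and 0.0418 averaged. It was under 0.05 in 11 of 17 alternatives, which include the pairing of 56 with 61 described in the closing section.

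AT5G65360, the other H3.1 gene of the set, read 1.50, 0.81, 0.40 and 0.13 on arrays 56, 57, 60 and 61. It was also positive on every array, but array 56 alone was above 1. Its mean of 0.71 ± 0.59 (SD, n = 4; 95% interval 0.13 to 1.29) missed the threshold (limma adjusted p = 0.1 over all genes), and was 0.45 without array 56. The mean rests on a pair of ESTs. EST N38674 read 1.23, 1.07, 0.32 and 0.21 on the 4 arrays, a mean of 0.70, and EST W43043 read 1.76, 0.56, 0.48 and 0.06, a mean of 0.71. The ESTs differed by -0.01 ± 0.44 on average (N38674 minus W43043), so they placed the gene at the same mean while disagreeing on single arrays, by -0.53 on array 56 and 0.51 on array 57. The level around each EST, a running median described below, differed in the same direction. On arrays 56 and 57 it was -0.13 and 0.36 at N38674 and 0.20 and -0.09 at W43043. Whether this accounts for the disagreement was not tested. Neither EST passed over all ESTs (limma adjusted p = 0.0801 and 0.128), where 17% of ESTs did.

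HIS4, measured by EST T20678, split between arrays. It read 1.33 and 1.06 on arrays 56 and 57 and -0.03 and -0.36 on arrays 60 and 61. Its mean of 0.50 ± 0.82 (SD, n = 4; 95% interval -0.23 to 1.23) thus averages a clear positive ratio on one pair of arrays and a ratio at or below 0 on the other pair, and it did not pass (limma adjusted p = 0.318). The mean was 0.22 without array 56, 0.31 without array 57 and 0.79 without array 61.

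The linker histone gene HIS1-3, measured by EST R30342, was higher on arrays 60 and 61 than on arrays 56 and 57. It read 0.17 and 0.07 on arrays 56 and 57 and 1.03 and 0.59 on arrays 60 and 61, above 0 on all 4 arrays, as were 22.7% of all genes. The mean was 0.46 ± 0.44 (SD, n = 4; 95% interval -0.03 to 0.95), and the gene did not pass (limma adjusted p = 0.176). Without array 60 the mean was 0.28.

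HON4 was the member on the negative side, at -0.73, 0.04, -0.76 and -0.16 on arrays 56, 57, 60 and 61. Its mean of -0.40 ± 0.40 (SD, n = 4; 95% interval -0.87 to 0.07) did not pass (limma adjusted p = 0.214). The pair of ESTs behind it varied to different degrees. EST T88231 was steady, at -0.36, -0.31, -0.52 and -0.59, with the smallest SD of the 7 member ESTs at 10 days (0.13). EST R30596 read -1.09 and -0.99 on arrays 56 and 60 and 0.39 and 0.28 on arrays 57 and 61, so its sign followed another split of the arrays than HIS4. T88231 had a mean of -0.45 (limma adjusted p = 0.118 over all ESTs) and R30596 of -0.35 (0.447).

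**Figure D1:**
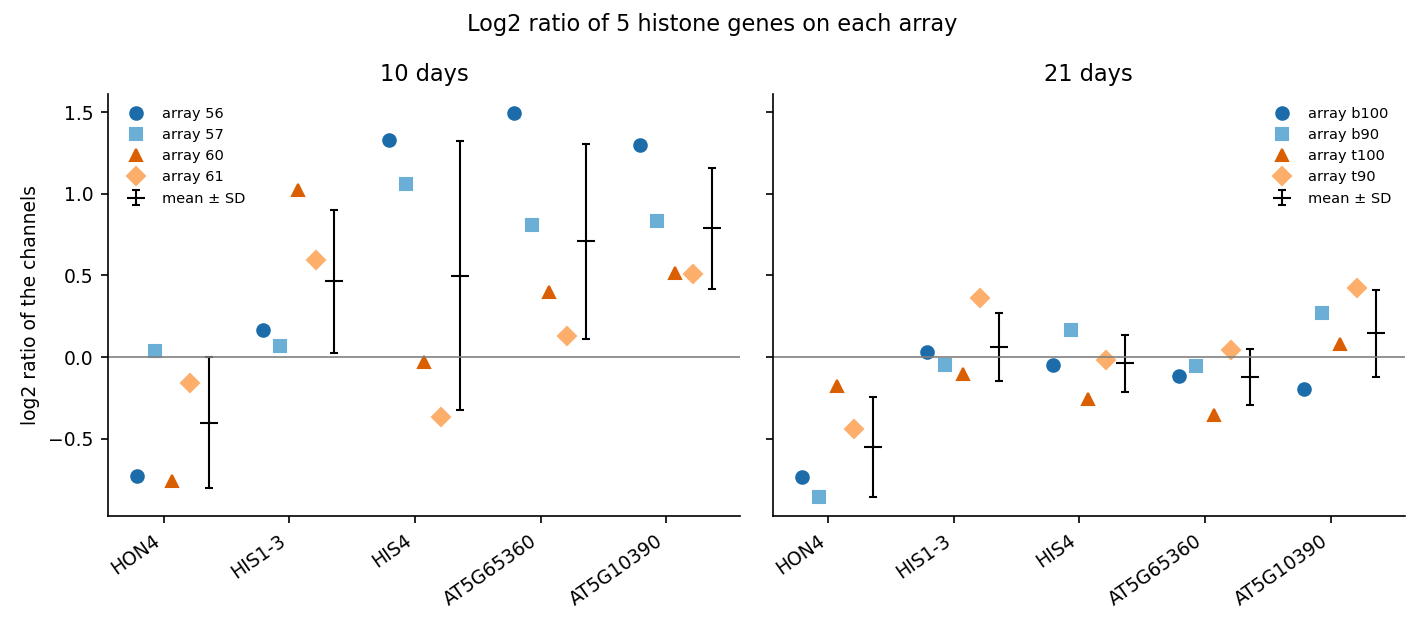
Log2 ratio of the channels (vertical axis) for each of the 5 histone genes on each array, 10 days on the left and 21 days on the right, with points for single arrays and black bars for the mean ± SD of 4 arrays. At 10 days AT5G10390, AT5G65360 and HIS1-3 are above 0 on all 4 arrays and HIS4 runs from -0.36 to 1.33. At 21 days every member except HON4 has a mean within 0.15 of 0.

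In the order of the means at 10 days AT5G10390 came first, then AT5G65360, HIS4, HIS1-3 and HON4. The steps between the first 4 were small against the spread, with differences of 0.08 ± 0.24, 0.21 ± 0.34 and 0.03 ± 1.21 (SD over 4 arrays). The step from HIS1-3 down to HON4 was 0.87 ± 0.72, and HIS1-3 stood above the EST mean of HON4 on all 4 arrays. EST R30596 of HON4 alone was above HIS1-3 on array 57, at 0.39 against 0.07. Among the 3517 genes the means of AT5G10390 and AT5G65360 stood at the 91.3 and 89.7 percentiles, those of HIS4 and HIS1-3 at 81.7 and 79.9, and that of HON4 at 17.8. If the ratio runs the other way, the order of the 5 is turned round and these become the 8.76, 10.4, 18.3, 20.1 and 82.2 percentiles.

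Linker and linker-like genes were set against core genes within each array, as a description without a test because the members were chosen with earlier results known. The mean of the 3 core genes was 1.37, 0.90, 0.29 and 0.09 on arrays 56, 57, 60 and 61. The mean of HON4 and HIS1-3 was -0.28, 0.05, 0.13 and 0.22. Linker minus core was therefore -1.66, -0.85, -0.16 and 0.13 on these arrays, with the lower linker mean on 3 of 4 and the widest gap on array 56. Its average was -0.63 ± 0.79 (SD, n = 4), less than its own spread, and -0.29 without array 56. HON4 alone lay below the core mean on all 4 arrays (mean difference -1.07 ± 0.77), whereas HIS1-3 lay below it on arrays 56 and 57 and above it on arrays 60 and 61 (mean difference -0.20 ± 0.96). The linker histone and the linker-like gene thus did not behave as a pair, HIS1-3 exceeding HON4 by 0.03 to 1.78 on single arrays.

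At 21 days the core genes and HIS1-3 were near equal channels, and HON4 was again on the negative side. None of the 5 passed in limma, as none of all 2913 genes did (0% of genes and 0% of ESTs). At an unadjusted p under 0.05 there was 1 member, HON4, against 9.13% of all genes.

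HON4 read -0.73, -0.85, -0.17 and -0.44 on arrays b100, b90, t100 and t90. It was negative on all 4 arrays, as were 8.31% of all genes. The mean was -0.55 ± 0.31 (SD, n = 4; 95% interval -1.00 to -0.10), with a limma p of 0.0218 and an adjusted p of 0.514. Its ESTs disagreed at this age. R30596 read -1.99, -1.12, -0.42 and -0.72, a mean of -1.06 (limma adjusted p = 0.307 over all ESTs), and T88231 read 0.53, -0.59, 0.07 and -0.16, a mean of -0.04 (adjusted p = 0.972). R30596 minus T88231 was between -2.52 and -0.48 on the 4 arrays, so the negative mean of the gene over these arrays comes mainly from R30596. The gap was widest on array b100, without which both means were negative, at -0.75 (R30596) and -0.23 (T88231). Without the local level described below, the means over 4 arrays were -0.84 and -0.13.

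AT5G10390 read -0.19, 0.27, 0.08 and 0.42 on arrays b100, b90, t100 and t90, a mean of 0.15 ± 0.27 (SD, n = 4). AT5G65360, with EST W43043 alone on this array type, read -0.12, -0.05, -0.36 and 0.04, a mean of -0.12 ± 0.17. HIS4 read -0.05, 0.16, -0.25 and -0.01, a mean of -0.04 ± 0.17. Arrays on both sides of 0 were present for each of these core genes, and their spread was smaller than at 10 days. The spread of all ESTs on an array was smaller too, with an SD of 0.54 to 0.65 at 21 days and 0.74 to 0.92 at 10 days. HIS1-3 read 0.03, -0.05, -0.10 and 0.36, a mean of 0.06 ± 0.21. Adjusted p-values in limma were between 0.866 and 0.964 for all 4 genes. Their 95% intervals reached at most 0.59 on the positive side (AT5G10390) and -0.55 on the negative side (AT5G65360).

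**Figure D2:**
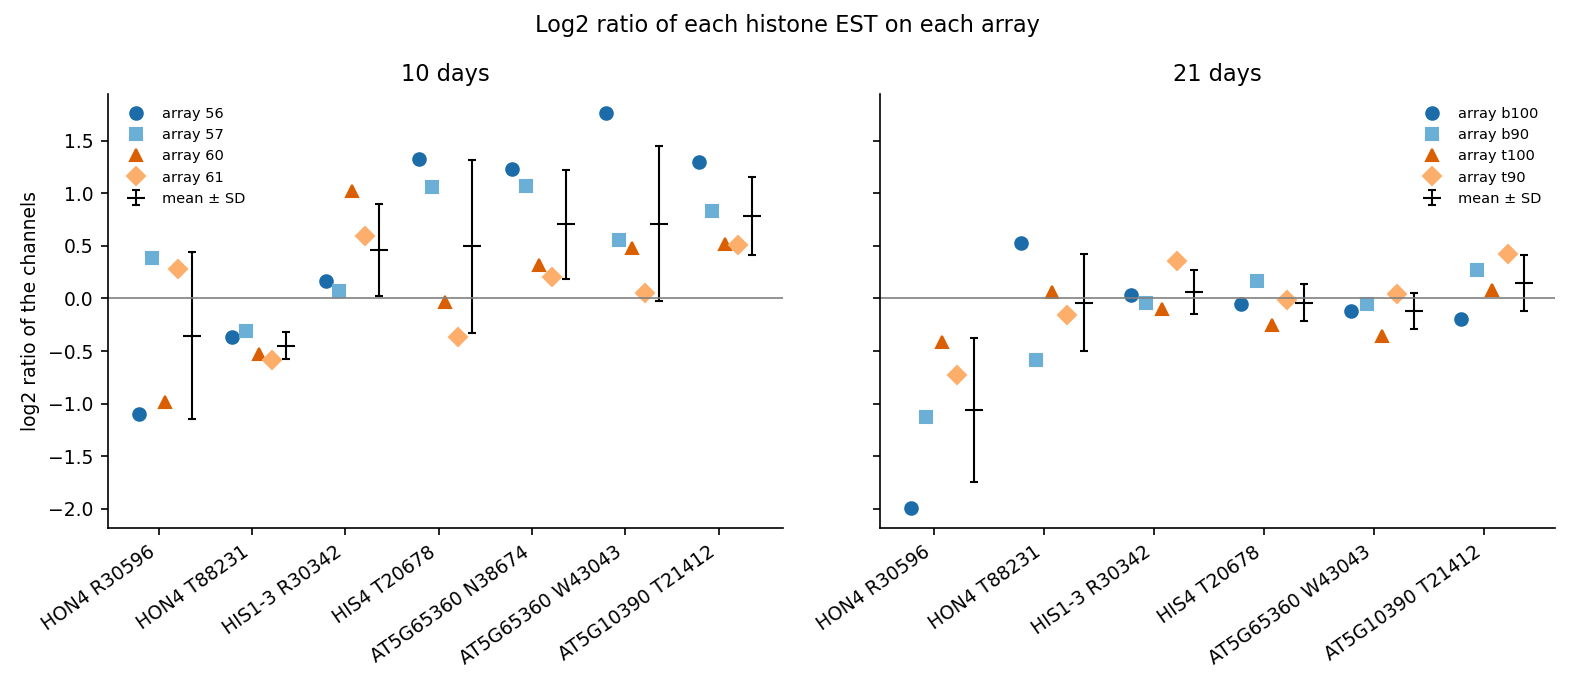
Log2 ratio of the channels (vertical axis) for each EST of the 5 genes on each array, 7 ESTs at 10 days and 6 at 21 days, with points for single arrays and bars for the mean ± SD of 4 arrays. The ESTs of AT5G65360 have like means of 0.70 and 0.71 at 10 days, while those of HON4 part at 21 days, with means of -1.06 and -0.04. The gap between the HON4 ESTs is widest on array b100.

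Among the members at 21 days the order of means was AT5G10390, HIS1-3, HIS4, AT5G65360 and HON4. The steps between neighbours were 0.08 to 0.10 among the first 4, each less than its SD over the arrays, and 0.43 ± 0.43 between AT5G65360 and HON4. Linker minus core was -0.24 ± 0.26 (SD, n = 4), with arrays b100, b90, t100 and t90 at -0.23, -0.58, 0.04 and -0.19, and the average was -0.13 without array b90. HON4 was -0.55 ± 0.41 from the core mean and HIS1-3 0.07 ± 0.17, so the negative sign of linker minus core at 21 days was carried by HON4. HIS1-3 stood above the EST mean of HON4 on all 4 arrays of 21 days too, by 0.61 ± 0.36. EST T88231 of HON4 alone was above HIS1-3 on arrays b100 (0.53 against 0.03) and t100 (0.07 against -0.10).

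**Figure D3:**
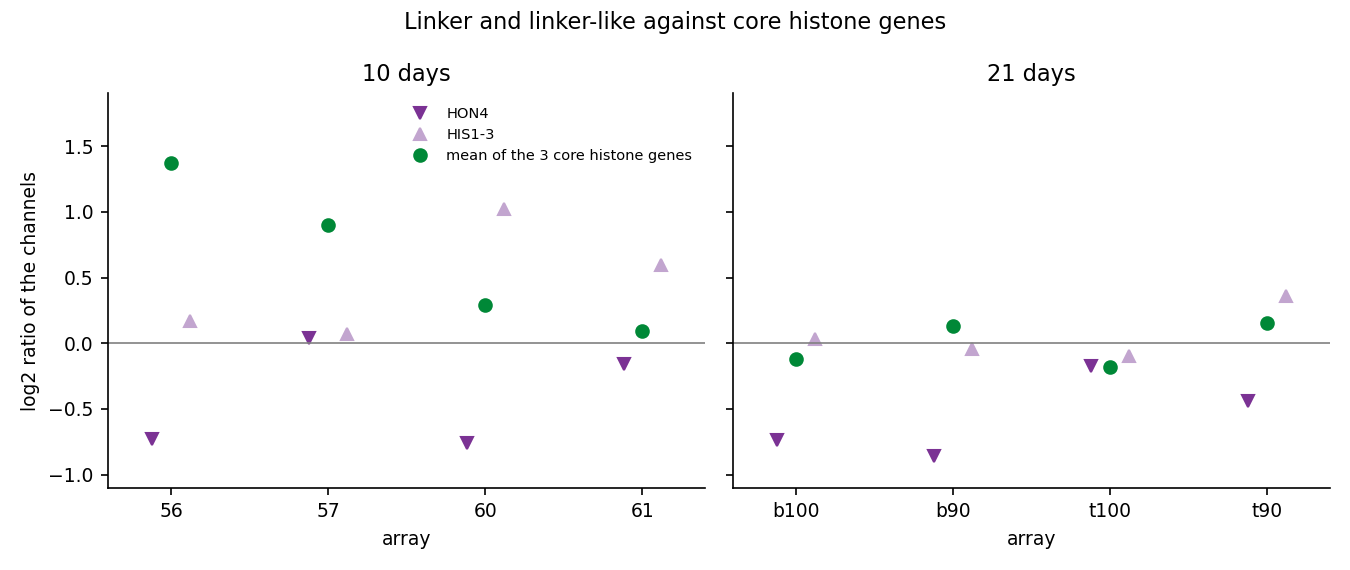
Log2 ratio of the channels (vertical axis) on each array (horizontal axis) for HON4, HIS1-3 and the mean of the 3 core histone genes, 10 days on the left and 21 days on the right. The core mean is 1.37 and 0.90 on arrays 56 and 57 and 0.29 and 0.09 on arrays 60 and 61. HIS1-3 is higher on arrays 60 and 61 than on 56 and 57. HON4, as the mean of its ESTs, lies below HIS1-3 on all 8 arrays. A single EST of HON4 lies above HIS1-3 on arrays 57, b100 and t100.

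The ratios of the members were compared between the ages over the 2913 genes measured on both array types. Age and array type cannot be told apart. All 5 members had a lower ratio at 21 than at 10 days, as did 51.8% of all genes, and none of the 5 passed in limma, where 3.47% of genes did. At an unadjusted p under 0.05 there were 2 members, the H3.1 genes, against 22.6% of all genes. AT5G65360 had a log2 difference (21 minus 10 days) of -0.83 ± 0.31 (SE; 95% interval -1.51 to -0.15; limma adjusted p = 0.147) and AT5G10390 of -0.64 ± 0.28 (SE; -1.24 to -0.04; adjusted p = 0.198). With all 8 arrays scaled to a common spread, these differences were -0.71 (limma adjusted p = 0.193) and -0.50 (0.326). For both H3.1 genes every 10-day array lay above every 21-day array, as for 8.07% of all genes. The exact two-sided permutation p was then 0.0286, the smallest that 4 against 4 arrays can give. After adjustment over all genes it was 0.198, which was the smallest adjusted value of any gene. Of all genes 14.5% had an exact p under 0.05 and 0% passed after adjustment, so this test separates no member from the rest.

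HIS4 differed by -0.54 ± 0.37 (SE; 95% interval -1.34 to 0.27), HIS1-3 by -0.40 ± 0.28 (-1.01 to 0.21) and HON4 by -0.15 ± 0.29 (-0.77 to 0.47), and for each of them the arrays of the ages overlapped. Their limma adjusted p-values were 0.424, 0.43 and 0.804. The ESTs of HON4 moved apart, with the widest gap at 21 days on array b100. On the 3951 ESTs shared by the array types, R30596 had a difference of -0.71 ± 0.44 and T88231 of 0.41 ± 0.31 (SE), neither past the threshold (limma adjusted p = 0.354 and 0.464). W43043 of AT5G65360 differed by -0.83 ± 0.36 and T21412 of AT5G10390 by -0.64 ± 0.30 on the same ESTs (adjusted p = 0.192 and 0.226), where 4.96% of ESTs passed.

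Other histone genes were read from lists given by locus code. Of 46 core histone loci, 14 were measured by name at 10 days and 12 at 21 days, the 3 core members included. The 13 loci for H2A, 11 for histone chaperones and 17 for DNA replication and the cell cycle gave 0 measured genes and were not analysed here. At 10 days 11 of the 14 core histone genes had a mean above 0, as did 53.1% of all genes, and their median was 0.51, against 0.04 for all genes. Without the 3 members it was 8 of 11, with a median of 0.29, and these 11 hold further H3.1 and H4 copies. AT5G10390 was the 1 of the 14 that passed, on the positive side, where 8.05% of all genes did. On the negative side 0 passed, against 5% of all genes.

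All 4 measured H3.1 genes were on the positive side at 10 days, AT1G09200 at 0.70 ± 0.63 and AT3G27360 at 0.29 ± 0.50 (SD, n = 4) beside the members. The H3.3 genes, which encode the H3 form used outside DNA copying, were at -0.31 ± 0.40 (AT4G40030) and 0.28 ± 0.51 (AT5G10980). The 5 H4 genes ran from 0.20 (AT5G59970) to 0.60 (AT1G07820), with HIS4 among them. The 3 H2B genes spread most widely, from AT2G28720 at -0.61 ± 0.57 to HTB4 at 0.70 ± 0.62. Apart from AT5G10390, limma adjusted p-values of core histone genes ran from 0.1 to 0.803. H3.1 copies encode the same protein, as do the H4 copies, and cDNA spots can bind transcripts of near-identical copies, so the ratios of single H3.1 and H4 genes are uncertain. Counts over core histone genes at either age, with or without the members, may therefore include copies that share signal. Such sharing was not tested. AT5G10390 also stands next to another H3.1 gene, AT5G10400, and AT5G65360 next to the H3-like gene HTR11.

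The split between arrays seen for HIS4 ran through the core histones. The mean of arrays 56 and 57 was above that of arrays 60 and 61 for all 14 core histone genes, and for 55.1% of all genes. For 9 of the 14 genes both arrays 56 and 57 lay above both 60 and 61, against 22.3% of all genes. Among the 11 that are no members it was 6. These comparisons were chosen after the values were seen, and the labels do not say whether these arrays form 2 experiments. The core members had means of 1.19 against -0.20 (HIS4), 1.15 against 0.26 (AT5G65360) and 1.07 against 0.51 (AT5G10390) on the pairs 56 and 57 against 60 and 61. HIS1-3 lay the other way, at 0.12 against 0.81, with both arrays 56 and 57 below both others, as for 17.3% of all genes. HON4 was at -0.35 against -0.46.

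**Figure D4:**
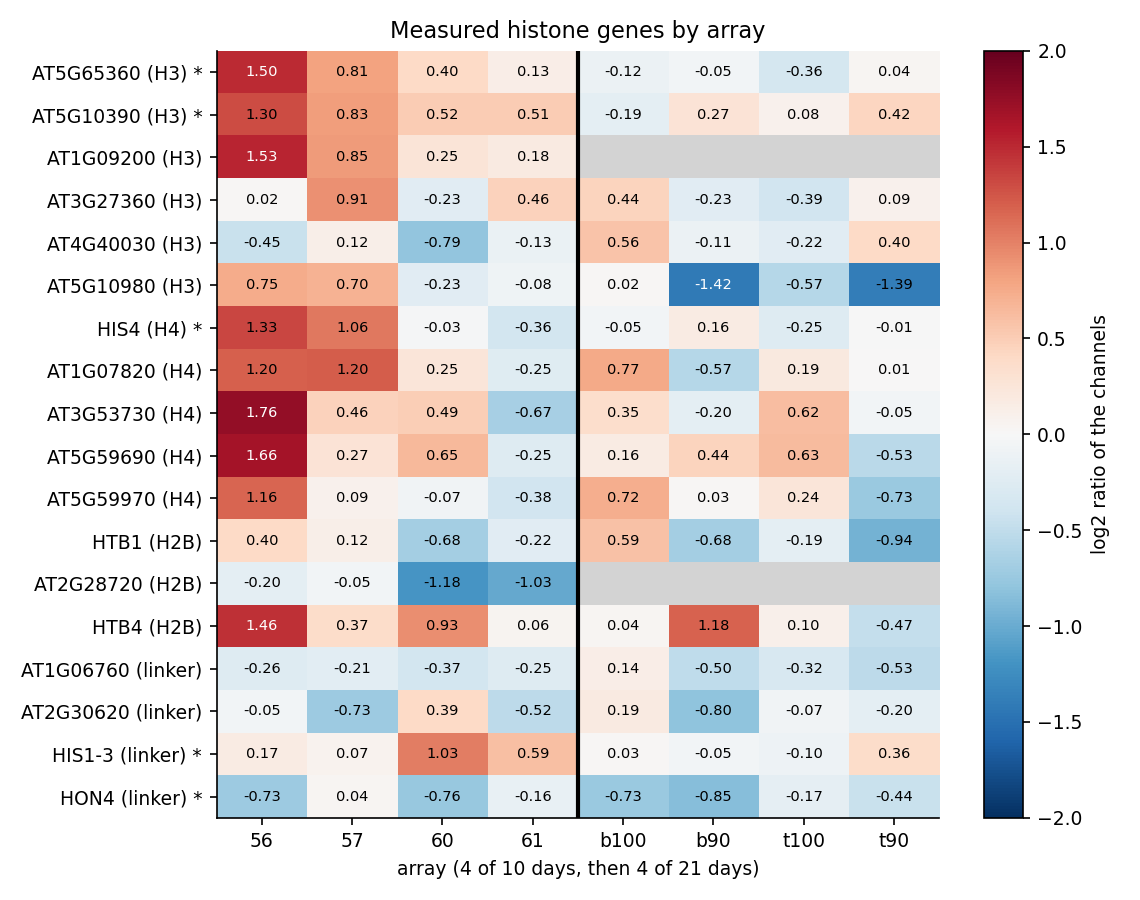
Log2 ratio of the channels, as colour and number, for the 18 histone genes measured at 10 days (rows, members marked with an asterisk) on each of the 8 arrays (columns), with grey where a gene was not measured at 21 days. On array 56 the 5 H4 rows read 1.16 to 1.76, and the highest of the 4 linker rows reads 0.17.

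The linker family list of 12 loci, which also holds HMG proteins, had 4 genes measured at each age. The main H1 genes AT1G06760 and AT2G30620 were at -0.27 ± 0.07 and -0.23 ± 0.50 at 10 days and at -0.30 ± 0.31 and -0.22 ± 0.42 at 21 days (SD, n = 4). Neither passed (limma adjusted p = 0.257 and 0.532 at 10 days, 0.691 and 0.79 at 21 days). HIS1-3 was thus the 1 linker gene of 4 with a mean above 0, at either age, although its mean at 21 days was -0.039 without array t90. The median of the 4 genes was -0.25 at 10 days and -0.26 at 21 days, against 0.04 and 0.02 for all genes.

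At 21 days 7 of 12 core histone genes had a mean above 0, as did 52.8% of all genes, with a median of 0.08, and 6 of 9 with a median of 0.10 without the members. The H3.3 gene AT5G10980 was the lowest, at -0.84 ± 0.70, and HTB4 the highest, at 0.21 ± 0.69 (SD, n = 4). No core histone gene passed (limma adjusted p = 0.486 for AT5G10980, with an unadjusted p of 0.0105). Between the ages 11 of the 12 had a lower ratio at 21 days, as did 51.8% of all genes. Their median difference was -0.45, against -0.02 for all genes, and 0 passed in limma, where 3.47% of all genes did. Without the members 8 of 9 were lower at 21 days, with a median difference of -0.33.

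HIS1-3 was also set beside genes of water deficit and abscisic acid response, of which 3 of 12 listed loci were measured. At either age 0 of them passed, against 13.1% of all genes at 10 days and 0% at 21 days. At 10 days KIN2, a cold and abscisic acid induced gene, read 0.77, 1.50, -3.15 and -2.73 on arrays 56, 57, 60 and 61, a mean of -0.90 ± 2.37 (SD, n = 4). The dehydrin genes COR47 and LTI30 were at -0.50 ± 0.57 and 0.11 ± 0.58. All 3 had both arrays 56 and 57 above both 60 and 61, as did 22.3% of all genes. HIS1-3 had both below, as did 17.3% of all genes. This split of the arrays was chosen after the values were seen. At 21 days their means were -0.41 ± 0.61 (KIN2), -0.61 ± 0.16 (COR47) and -0.01 ± 0.48 (LTI30).

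The genes whose ratios lay nearest to each member over the 8 arrays were found by the root mean square difference of log2 ratios among 2912 other genes. The smallest were 0.18 for HIS1-3 (AT5G15980), 0.20 for AT5G10390 (AT5G19250), 0.20 for AT5G65360 (AT2G39390), 0.23 for HIS4 (AT1G65032) and 0.25 for HON4 (AT4G11560). Next came AT5G45775 for HIS1-3, AT5G51960 for AT5G10390, AT2G27580 for AT5G65360, AT1G15230 for HIS4 and AT2G45670 for HON4, at 0.20 to 0.25. Between members, AT5G65360 ranked 5 among 2912 genes by nearness to HIS4, with a difference of 0.27, and AT5G10390 ranked 19 by nearness to AT5G65360, at 0.28. By nearness to HIS4, AT5G10390 ranked 81, at 0.43. HON4 and HIS1-3 differed by 0.90, with HIS1-3 at rank 1923 by nearness to HON4.

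The level around each member EST was taken as the running median over 36 ESTs on either side in the order of EST identifiers, and positions of spots on the slide were not used here. At 10 days this local level averaged between -0.02 and 0.09 over the 4 arrays at the member ESTs. On single arrays it ran more widely, from -0.28 (T88231 of HON4, array 60) to 0.36 (N38674 of AT5G65360, array 57). At T88231, whose ratios were steady, it was -0.01, 0.27, -0.28 and 0.21 on arrays 56, 57, 60 and 61. Without the local level the mean of AT5G10390 was 0.74, that of HIS4 0.43 and that of HIS1-3 0.49. At 21 days it was largest at HIS4, where array t100 had a local level of -1.00 against a ratio of -0.25. Without the local level the mean of HIS4 at 21 days was 0.26 in place of -0.04, and the limma adjusted p was 0.804. On array 56, 96.9% of the deposited values had at most 2 decimals, which is a step of 0.03 on the log2 scale.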

How the data were processed

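The deposited values were log10 ratios of the channels of each array, a scale judged from the values: taking antilogs to base 10 yielded ratios of 3 decimals on 7 of 8 arrays (within 0.01 of a thousandth, ratios under 3). The authors had centred the arrays, as judged from medians at or near 0. Dyes, background correction, normalization, spot filters and genome build are not given here by any label or header, so no coordinates are printed. Values were converted to log2 and centred on each array's median. ESTs with values on all 4 arrays of an age were kept (11956 and 8812), and Entrez identifiers were matched to the TAIR10.1 gene list for 5209 and 3905 ESTs. The ESTs of a gene were averaged (3517 and 2913 genes). Each age was fitted with limma 3.58.1 in R 4.3.3 (with statmod 1.5.0) as an intercept with eBayes, and the ages were compared over all 8 arrays, with Benjamini-Hochberg adjustment over the whole set tested at 0.05. The fits were tested on simulated data with independent arrays, which cannot show how they behave where arrays share an experiment. Genes outside the members were named as those past the threshold or at either end of a list, as the nearest to a member, or, after their values were seen, as further histone and dehydration genes. The members and lists were chosen with earlier results of these data known. Alternatives are given in the closing section. The number of arrays limits the precision.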

Additional observations from a re-analysis of the deposited data

Results flagged for a closer look

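The dehydrin gene LTI30 at 10 days was flagged because 1 array stood far from the other 3. It read -0.75 on array 60 and between 0.30 and 0.47 on the others, a gap of 0.864 of the whole range, where chance flags about 1 in 20 groups. The cause was not tested.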

How the results depend on the processing

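At 10 days each of the 5 means kept its sign without centring, with scaling, quantile normalization or the local median removed, and without any 1 array. The count of members past the threshold at 10 days, 1 gene and 1 EST in the main analysis (AT5G10390), was 0 to 0 for both when any array was left out. It was 0 when 56 paired with 60 and 57 with 61, blocked or averaged, for genes and for ESTs, and 0 for ESTs when 56 paired with 57 and 60 with 61, averaged. When 56 paired with 61 and 57 with 60, all 5 genes and all 7 ESTs passed, blocked or averaged. The correlation estimated for that pairing was negative (-0.80), which by construction narrows the error of a mean, and 57.5% of all genes passed under the block. The genes past the threshold among all genes at 10 days, 459 in the main analysis, were 781 without the local median, 99 to 195 without an array, 263 with the block of arrays 56 and 60, and 2021 and 1533 with arrays 56 and 61 as a block and as 2 samples. At 21 days 0 members passed in all alternatives by gene, and 1 EST, R30596 of HON4 (limma adjusted p = 0.00449), passed when b100 paired with b90 and t100 with t90, averaged, where 48 of 2913 genes passed in place of 0. The share of all ESTs that passed under the pairings was not counted at either age. The EST calls under pairings thus have no background beside them. Means near 0 at 21 days changed sign. HIS4 was at 0.26 without the local median, and with an array left out its mean ran from -0.106 to 0.0335 (the upper value without t100), that of HIS1-3 from -0.039 to 0.115 (the lower without t90) and that of EST T88231 of HON4 from -0.227 to 0.144, above 0 without b90 or t90 (0.0016). The cause was not tested. Between ages 0 members passed in all 14 alternatives. These include the exact permutation test, where the smallest adjusted p of any gene was 0.198. The genes past the threshold among all, 101 in the main analysis, were 170 without the local median, 50 with scaling of all 8 arrays and 0 in the exact permutation test. They were 46 without array 56, and 51, 61 and 40 without arrays b90, t100 and t90. The alternatives for ESTs and for all genes were chosen after seeing the data. Linker minus core ran from -0.888 to -0.293 at 10 days (without arrays 61 and 56) and from -0.334 to -0.128 at 21 days (without t100 and b90). The median over ESTs equals the mean for members, none of which had more than 2 ESTs.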
